A study of Mus musculus with 9 samples.

Results

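A set of 10 epithelial genes of the mouse liver was followed across cell types and across the time of YAP induction. They were chosen by name as genes of bile duct cells and of progenitor-like epithelium, with earlier results of these data known. The set held the keratins Krt7, Krt8, Krt18 and Krt19, the transcription factor Sox9, the adhesion molecule Epcam, the claudins Cldn3 and Cldn7, the membrane protein Tm4sf4 and the secreted chaperone Clu. All 10 members were present among the 27998 genes of the deposited table of single-cell counts. The libraries came from livers of C57BL/6 mice carrying ROSA26-rtTA-IRES-EGFP, an allele that yields the doxycycline-dependent activator after Cre recombination, which the study drove with an albumin-promoter Cre. The WT group (2 libraries) had no YAP transgene and received doxycycline food for 7 days. The other groups carried tetYAP, a doxycycline-responsive transgene for an active YAP mutant, and were fed doxycycline for 3 days (YAP3d, 4 libraries) or 7 days (YAP7d, 3 libraries). WT therefore shares the activator allele and the 7 days of doxycycline with YAP7d but not the 3-day exposure of YAP3d. Cells were released from minced liver by enzyme digestion, a preparation the study describes as one for cells other than hepatocytes, so that hepatocytes were few. No source states whether animals were pooled, and p-values measure the spread between libraries, which may in part be technical.

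Keratins 8 and 18 are obligate partners that form the intermediate filaments of hepatocytes, while keratins 7 and 19 are added in cholangiocytes, the cells that line bile ducts. Sox9 marks bile duct epithelium and a periportal subset of hepatocytes, Epcam is a surface molecule of ductal and progenitor epithelium, and claudins 3 and 7 are tight junction proteins. YAP is the transcriptional co-activator at the end of the Hippo pathway, binds DNA through TEAD factors, and is known in liver for biliary specification and for driving hepatocytes towards a ductal state. In the RefSeq annotation of GRCm38.p6 all 10 members are protein coding. Krt7 lies on chromosome 15 at 101412403 to 101427806, Krt8 at 101996711 to 102004342 and Krt18 at 102028216 to 102032026 of the same chromosome. Krt8 is read from the minus strand and Krt18 from the plus strand, so that they diverge from starts 23874 bases apart. Chromosome 11 holds Cldn7 (69964779 to 69967886), Krt19 (100140810 to 100145926) and Sox9 (112782210 to 112787757). Epcam lies on chromosome 17 (87635979 to 87651127), Cldn3 on chromosome 5 (134986214 to 134987476), Tm4sf4 on chromosome 3 (57425410 to 57441677) and Clu on chromosome 14 (65968483 to 65981548).

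The promoters of the neighbouring keratin pair are shown because these 2 genes carried the clearest difference in hepatocyte-like cells, and 1 promoter of Cldn7 because it alone held the motif searched. Each sequence is the 250 bases before the gene start from RefSeq on GRCm38.p6, on the strand of the gene. Capitals mark a match to CATTCC, the core of the motif bound by TEAD factors, searched on both strands (GGAATG when read from the other strand). Krt8 is chr15:102004343-102004592 (minus strand), Krt18 is chr15:102027966-102028215 (plus strand) and Cldn7 is chr11:69964529-69964778 (plus strand).
Krt8: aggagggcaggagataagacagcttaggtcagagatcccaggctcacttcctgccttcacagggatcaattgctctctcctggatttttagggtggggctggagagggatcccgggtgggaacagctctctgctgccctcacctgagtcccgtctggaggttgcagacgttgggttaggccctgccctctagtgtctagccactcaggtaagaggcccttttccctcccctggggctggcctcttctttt
Krt18: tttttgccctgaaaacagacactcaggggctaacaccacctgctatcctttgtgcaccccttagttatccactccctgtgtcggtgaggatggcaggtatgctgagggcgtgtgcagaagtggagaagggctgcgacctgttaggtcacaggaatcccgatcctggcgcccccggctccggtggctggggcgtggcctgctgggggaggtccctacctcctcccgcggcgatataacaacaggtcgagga
Cldn7: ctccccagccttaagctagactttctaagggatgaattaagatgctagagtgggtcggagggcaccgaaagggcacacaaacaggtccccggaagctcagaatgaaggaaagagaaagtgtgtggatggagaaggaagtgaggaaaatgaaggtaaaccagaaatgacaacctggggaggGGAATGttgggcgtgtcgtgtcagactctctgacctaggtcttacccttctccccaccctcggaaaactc
RefSeq promoters were listed for 7 of the 10 members (Krt19, Sox9 and Clu are named only), with 2 for Cldn7. Of these 8 promoters 1 held a match, 70 bases before the start of Cldn7. Over all genes 12.6% of promoters of this length held one (3414 of 27025). Among genes tested in hepatocyte-like cells 11.1% did (148 of 1330).

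The table held 8562 cells, of which 8527 with at least 200 detected genes were kept. Values are UMI counts, in which a unique molecular identifier (UMI) tags a single RNA molecule caught from a cell, and levels are UMIs of a gene per 1000000 UMIs (CPM) of the cells summed. Kept cells gave 1288940 to 25056881 UMIs per library, and the median per cell ranged from 3231 to 11471.5, with all 3 YAP7d libraries above the others. Clustering without the members gave 24 clusters, named only from markers that include no member, and 144 cells stayed unnamed. Across libraries, 46 cell barcodes occurred in 2 or more. In hepatocyte-like cells, the site of induction, Yap1 had 1 and 0 UMIs in the WT libraries, 1 to 6 in the YAP3d libraries and 11 to 19 in the YAP7d libraries. The UMIs sampled from these cells rose in the same order, from 1510 and 12976 in WT to 45070 to 104637 in YAP3d and 126135 to 204590 in YAP7d, and per 1000000 UMIs the groups overlapped, at 77.1 and 0 CPM in WT, 19.7 to 80.5 CPM in YAP3d and 73.3 to 147 CPM in YAP7d. No source states whether transgene RNA is counted under this gene. One library pattern crosses the groups: the pseudogene Gm10709 stood at 347 to 611 CPM in all YAP7d libraries and in YAP3d replicates 1 and 2, but at 3.65 to 11.2 CPM in WT and in YAP3d replicates 3 and 4. The labels name more than 1 version of the Chromium kit without tying a version to a library, the methods of the study give a single version for the whole-liver libraries, and whether kit, run or annotation moves with Gm10709 was not tested.

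All 10 members were highest in 1 cluster of 49 cells, in which most cells carried nearly all of them. Of the 15 cholangiocyte markers, 14 were raised in this cluster, which is called cholangiocyte-like. Krt8, Krt18, Tm4sf4 and Clu and, with few UMIs, Cldn3 and Sox9 were also present in the 115 hepatocyte-like cells, whereas Krt7, Epcam and Cldn7 had no UMI there. These levels are descriptions, without a test, because classes are clusters of the same cells.

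Krt8 stood at 2443 CPM in cholangiocyte-like cells and 1761 CPM in hepatocyte-like cells, and its level was at most 5.10 CPM in any other named class. Krt18 showed the same order, with 2094 CPM, 1440 CPM and at most 4.67 CPM in the other named classes. Unnamed cells stood at 11.5 CPM for Krt8 and 14.9 CPM for Krt18. For this keratin pair, 81.7% of hepatocyte-like cells held a Krt8 UMI and 86.1% a Krt18 UMI at a median depth of 4365 UMIs. In T cell-like cells, which should lack keratins and had a median of 4773.5 UMIs, the corresponding shares were 1.49% and 1.32%. Tm4sf4, a membrane protein of epithelial cells, stood at 2415 CPM in cholangiocyte-like and 335 CPM in hepatocyte-like cells and was at most 3.13 CPM in the other named classes. Clu, the secreted chaperone clusterin, stood at 20065 and 270 CPM. Among the other named classes Clu was highest in endothelial-like cells, at 32.4 CPM, and it stood at 76.3 CPM in the unnamed cells.

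Krt19 reached 753 CPM in cholangiocyte-like cells and had 1 UMI in all hepatocyte-like cells together. Krt7 reached 226 CPM and Cldn7 588 CPM, and neither had a UMI among the 749193 UMIs of hepatocyte-like cells, where the limit set by 3 UMIs is 4.0 CPM. Sox9 and Cldn3 took an intermediate place. Sox9 stood at 266 CPM in cholangiocyte-like and 22.7 CPM in hepatocyte-like cells. Cldn3 stood at 843 and 36.0 CPM. Epcam was unlike the others: after 1032 CPM in cholangiocyte-like cells its next levels were in immune classes, with 28.0 CPM in plasmacytoid dendritic-like, 16.1 CPM in B cell-like and 13.9 CPM in NK-like cells, while hepatocyte-like cells had none.

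**Figure D1:**
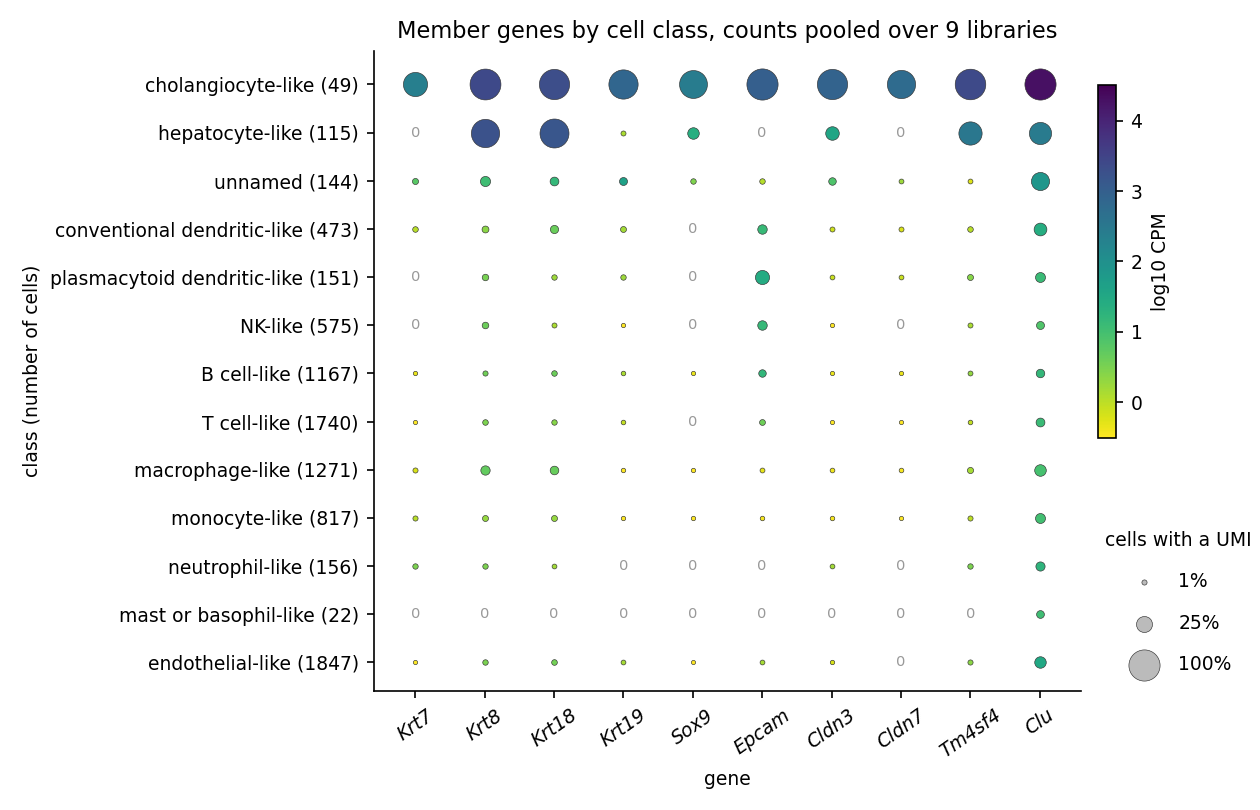
Level of each of the 10 members in each named class and in unnamed cells, with UMIs pooled over the 9 libraries. Colour gives log10 CPM, dot size gives the percentage of cells with at least 1 UMI and a printed 0 marks no UMI; all members are highest in cholangiocyte-like cells, 4 of them remain high in hepatocyte-like cells, and Epcam has small dots in several immune classes.

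Single cholangiocyte-like cells carried most of the 10 members at once. The median cell had UMIs of 9 members (range 2 to 10), 23 of 49 cells had all 10, and the members made up a median of 2.77% of a cell's UMIs. Over all 8527 cells, 44 cells had UMIs of at least 7 members, and each of these was cholangiocyte-like. With a limit of at least 5 members, 75 cells qualified, of which 48 were cholangiocyte-like, 21 hepatocyte-like and 6 of other classes. No hepatocyte-like cell had more than 6.

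Cholangiocyte-like cells were rare in every group, with 3 and 14 cells in WT, 3, 1, 3 and 15 in YAP3d and 3, 2 and 5 in YAP7d. Within them, no member passed the test between groups. The 4 keratins had their highest group means in YAP7d, and 7 of the 8 members with enough counts to test had a positive YAP7d against WT log2 fold change, with a median of 0.77 beside 0.04 over the 535 genes tested. The WT libraries decided its size: the members' median was 0.45 without WT replicate 1 and 1.53 without WT replicate 2, with Krt18 at 0.58 and 2.69 and Krt19 at 0.62 and 3.38. The fit used the 8 libraries with at least 2 such cells and was added after the data had been seen. Genes were tested on summed counts with edgeR's quasi-likelihood test and called at a Benjamini-Hochberg adjusted p below 0.05.

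Krt18 stood at 463 and 1977 CPM in WT, 1809, 2042, 1234 and 1777 CPM in YAP3d, and 3057, 2886 and 2519 CPM in YAP7d. All 3 YAP7d libraries lay above all 6 others, and YAP3d replicate 2 rests on a single cell. The log2 fold change of Krt18 between YAP7d and WT was 1.12 (adjusted p = 0.436 by edgeR, SE 0.44). Krt8 stood at 1158 and 2349 CPM in WT, 2335, 1135, 1333 and 2095 CPM in YAP3d and 3354, 2386 and 3106 CPM in YAP7d. The lowest YAP7d library of Krt8 was close to the highest WT library, and the log2 fold change was 0.79 (adjusted p = 0.533 by edgeR, SE 0.41).

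Krt19, a keratin of ducts, stood at 116 and 786 CPM in WT, 592, 454, 296 and 628 CPM in YAP3d, and 1401, 1385 and 749 CPM in YAP7d. Here 1 YAP7d library fell below the higher WT library. The log2 fold change of Krt19 was 1.08 (adjusted p = 0.495 by edgeR, SE 0.54) between YAP7d and WT and 1.24 (adjusted p = 0.319 by edgeR, SE 0.47) between YAP7d and YAP3d. Krt7, its partner type II keratin, had too few counts to be tested. It stood at 0 and 177 CPM in WT, 65.8, 227, 247 and 141 CPM in YAP3d, and 255, 616 and 325 CPM in YAP7d. Krt7 had 0 UMIs in WT replicate 1 and 1 UMI in YAP3d replicate 2, where 3 UMIs would be 348 and 681 CPM, so that no order of the groups could be set.

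Sox9, a factor of the ductal lineage, was also not tested and stood at 232 and 380 CPM in WT, 296, 227, 148 and 265 CPM in YAP3d, and 84.9, 154 and 226 CPM in YAP7d. WT replicate 1 and YAP7d replicate 1 rest on 2 Sox9 UMIs each, so that no order of the groups could be set. Epcam stood at 1506 and 710 CPM in WT, 893 to 1679 CPM in YAP3d and 966 to 2462 CPM in YAP7d, and the groups overlapped. Its log2 fold change between YAP7d and WT was 0.86 (adjusted p = 0.704 by edgeR, SE 0.61).

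Of the junction genes, Cldn3 overlapped between groups and Cldn7 was higher in the 3 YAP7d libraries than in the other libraries with at least 2 such cells. Cldn3 ranged from 348 to 794 CPM in WT, 227 to 839 CPM in YAP3d and 764 to 1116 CPM in YAP7d. Cldn7 ranged from 232 to 524 CPM, from 0 to 625 CPM and from 637 to 770 CPM in the same order, with the 0 in the YAP3d library of 1 cell, where 3 UMIs would be 681 CPM. Their log2 fold changes were 0.64 (adjusted p = 0.581 by edgeR, SE 0.35) and 0.75 (adjusted p = 0.509 by edgeR, SE 0.38). Tm4sf4 and Clu overlapped between groups, with log2 fold changes of -0.35 (adjusted p = 0.907 by edgeR, SE 0.46) and 0.60 (adjusted p = 0.907 by edgeR, SE 0.73). Clu varied from 8581 to 32306 CPM within YAP7d alone.

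Between YAP7d and WT, 0 of 8 members were called in cholangiocyte-like cells, beside 1 of 535 genes (0.187%, the ribosomal gene Rps27rt, chosen here because it was the only call). At an unadjusted p below 0.05, edgeR found 56 genes there, of which Krt18 was the only member, and DESeq2 also called 1 gene and no member. Between YAP3d and WT, 0 of 535 genes were called (0%), with 6 at an unadjusted p below 0.05 and 0 by DESeq2. The 8 members had a median log2 fold change of 0.20 there, which turned to -0.21 without WT replicate 1 and was 1.14 without WT replicate 2. Between YAP7d and YAP3d, 0 genes were again called (0%), with 53 at an unadjusted p below 0.05, Krt18 and Krt19 among them, and 0 by DESeq2, and the members' median was 0.51 beside 0.05 over all genes. Hepatocyte transcripts were present in these cells at 0.289 to 1.14% of UMIs, and mitochondrial counts had medians of 2.80 to 9.71%; their part in the values was not tested.

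**Figure D2:**
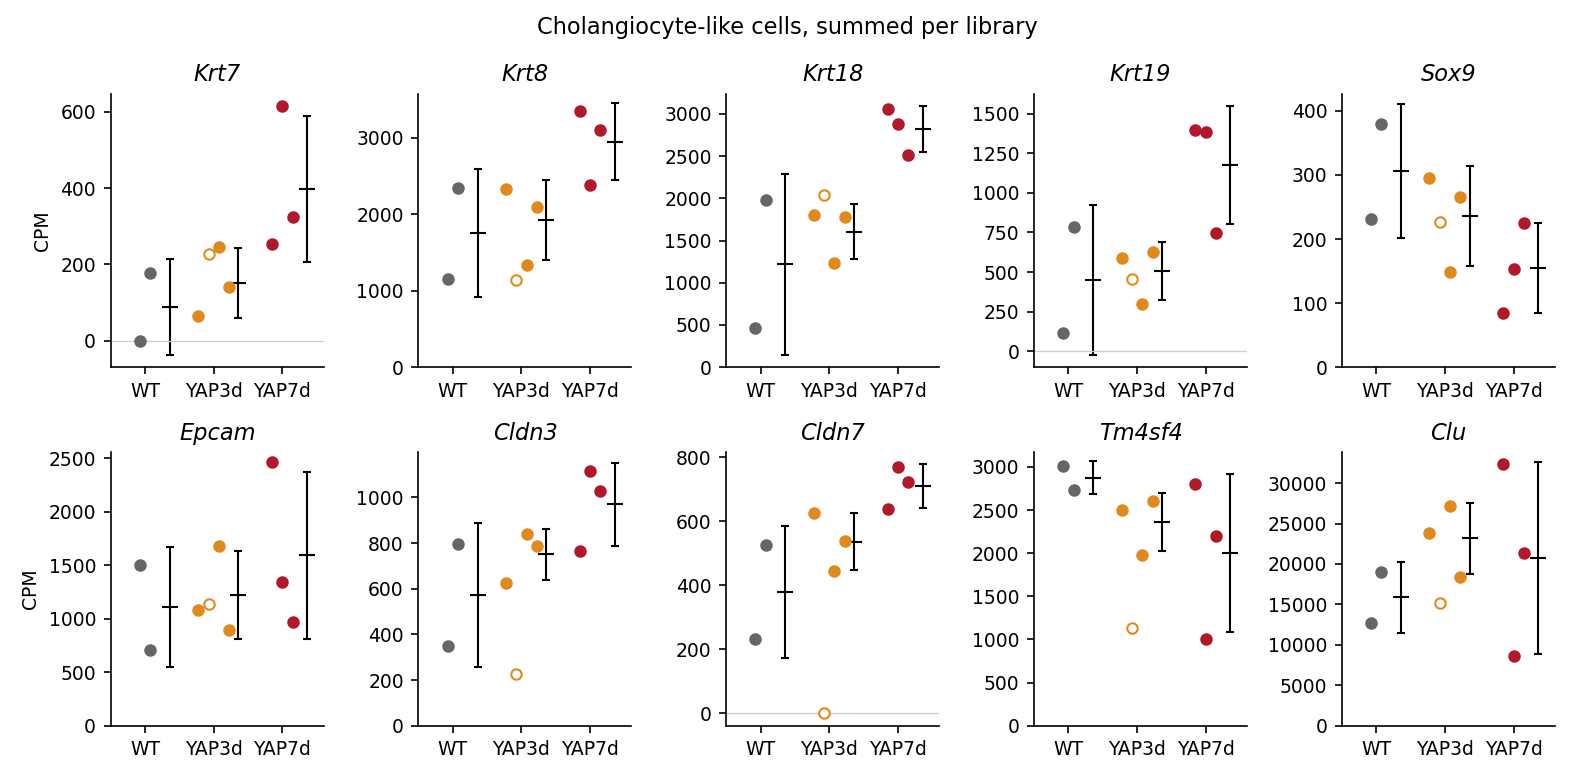
CPM of the 10 members in cholangiocyte-like cells, 1 point per library by group (2 WT, 4 YAP3d, 3 YAP7d), with the open point for the library with 1 such cell and bars for the mean and SD of the filled points. Krt18 has all YAP7d points above the rest, from 2519 to 3057 CPM, Tm4sf4 and Clu overlap, and some Krt7 and Sox9 points rest on fewer than 3 UMIs.

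In hepatocyte-like cells, the partner keratins Krt8 and Krt18 were higher at 7 than at 3 days of induction. The chaperone Clu was also called higher, but it reached the filter on low counts only through the YAP7d libraries. Its call is therefore partly set by that filter. Krt8 rose from 532 ± 252 CPM in YAP3d to 2453 ± 891 CPM in YAP7d, Krt18 from 740 ± 76.5 to 1855 ± 446 CPM and Clu from 84.4 ± 66.4 to 374 ± 123 CPM (mean ± SD, n = 3 libraries in each group). Tm4sf4 had 75.4 ± 99.3 and 488 ± 110 CPM but did not pass the test. The ductal genes Krt7, Krt19, Epcam and Cldn7 stayed at or next to 0 UMIs in both groups.

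The test took libraries with at least 10 hepatocyte-like cells, which left YAP3d replicates 2, 3 and 4 (13, 18 and 11 cells) and YAP7d replicates 1, 2 and 3 (28, 22 and 11 cells). WT had 2 and 1 such cells and YAP3d replicate 1 had 9, and these are given as values only. Mitochondrial counts in hepatocyte-like cells had medians of 0.0925 to 0.413% in YAP3d libraries and 0.0678 to 0.139% in YAP7d libraries. In cholangiocyte-like cells they had medians of 2.80 to 9.71%, and the state of the cells was not tested. All 15 hepatocyte markers were detected in the hepatocyte-like class and made up 2.90 to 4.65% of UMIs in YAP3d libraries and 2.38 to 3.22% in YAP7d libraries. Of the 15 cholangiocyte markers, 10 had UMIs (407 in all), and Cftr, Ddr1, Ehf and Mmp7 were among those at 0. Their summed level was 0.0210 to 0.0650% of UMIs in YAP3d libraries and 0.0504 to 0.0836% in YAP7d libraries, so that the groups overlapped. This sum includes Spp1, and its part in the differences between groups was not tested.

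Krt8, the type II keratin of the pair, stood at 792, 288 and 516 CPM in YAP3d replicates 2 to 4 and at 2644, 1483 and 3233 CPM in YAP7d. YAP3d replicate 1 stood at 788 CPM and WT replicate 1 at 539 CPM, both below the lowest YAP7d library, while WT replicate 2 held 1 Krt8 UMI in its only cell and could not be placed. The log2 fold change of Krt8 between YAP7d and YAP3d was 2.17 (adjusted p = 0.0269 by edgeR, SE 0.38).

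Krt18, its type I partner, stood at 819, 666 and 736 CPM in YAP3d replicates 2 to 4 and at 1662, 1538 and 2365 CPM in YAP7d. YAP3d replicate 1 stood at 1280 CPM, nearer to the YAP7d libraries than the other YAP3d libraries were, and WT replicate 1 at 539 CPM, while WT replicate 2 held no Krt18 UMI in its only cell, where 3 UMIs would be 1987 CPM. The log2 fold change of Krt18 was 1.31 (adjusted p = 0.0289 by edgeR, SE 0.24).

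Clu stood at 161, 44.4 and 47.8 CPM in YAP3d replicates 2 to 4 and at 313, 515 and 295 CPM in YAP7d. YAP3d replicate 1 stood at 295 CPM, level with the lowest YAP7d library, so that the groups touch when its 9 cells are counted. The log2 fold change of Clu was 2.10 (adjusted p = 0.0495 by edgeR, SE 0.48). Since Clu reached the filter on low counts only through the YAP7d libraries, this call is partly set by the filter and is a description. Tm4sf4 stood at 188, 0 and 38.2 CPM in YAP3d replicates 2 to 4, at 315 CPM in replicate 1, and at 376, 492 and 597 CPM in YAP7d. Its log2 fold change was 2.58 (adjusted p = 0.0577 by edgeR, SE 0.62), and its groups did not overlap.

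Of the 10 members, 4 had enough counts to be tested and 3 of these were called, all higher in YAP7d. Over all 1713 genes tested, 53 were called (3.09%) and 23 were called higher (1.34%). Clu and Tm4sf4 reached the filter on low counts only through the YAP7d libraries, so that the count, its direction and the median log2 fold change of the 4 members (2.13, beside 0.06 over all genes) are partly set by the filter and are descriptions. Without the filter 7 members were fitted, with a median of 1.64 beside 0.31 over 11500 genes, and Cldn3 (1.64), Sox9 (1.36) and Krt19 (-2.24) were not called. These calls depend on the libraries: leaving out YAP3d replicate 3 or 4 or YAP7d replicate 1 or 3 left 0 members called, beside 0, 1, 18 and 3 genes called in all. Leaving out YAP7d replicate 2 left 2 members called, and leaving out YAP3d replicate 2, or using DESeq2, gave 4. With YAP3d replicate 1 added, Krt8 alone was called (edgeR adjusted p = 0.0323), with 0.0926 for Krt18 and 0.175 for Clu. Over 17 alternatives the sign held for all 4 members, with log2 fold changes from 1.65 to 2.48 for Krt8, 1.02 to 1.51 for Krt18, 1.22 to 3.55 for Clu and 1.39 to 4.58 for Tm4sf4. Their adjusted p ranged up to 0.478, 0.413, 0.589 and 0.589, and Gm10709, high in YAP3d replicates 1 and 2 and in all YAP7d libraries, as a term in the fit left no gene called.

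Levels of the same members in a class that should lack them are given for comparison. In T cell-like cells, group means were 1.03 to 3.69 CPM for Krt8, 0.972 to 2.52 CPM for Krt18 and 5.06 to 11.7 CPM for Clu. Cholangiocyte-like cells held 5.14 Epcam UMIs for each 100 of Clu, whereas hepatocyte-like cells held 0 Epcam UMIs beside 202 of Clu. Macrophage markers, all 12 of them detected, made up 0.00394 to 0.0134% of UMIs in YAP3d libraries and 0.0210 to 0.0721% in YAP7d libraries. Their part, and that of RNA released from other cells, was not tested.

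**Figure D3:**
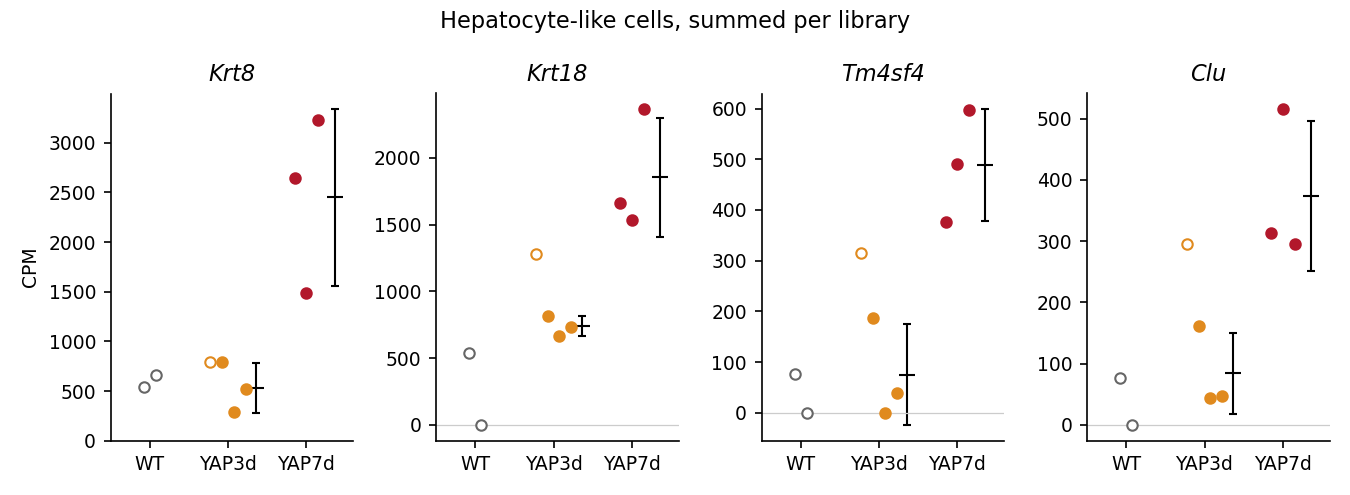
CPM of Krt8, Krt18, Tm4sf4 and Clu in hepatocyte-like cells, 1 point per library by group, with open points for libraries with under 10 such cells and bars for the mean and SD of filled points. Filled YAP7d points lie above filled YAP3d points in each panel, for example 1483 to 3233 against 288 to 792 CPM for Krt8.

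The members with few UMIs in hepatocyte-like cells were not tested. Sox9 had 6 UMIs in 4 of 51 YAP3d cells and 11 UMIs in 10 of 61 YAP7d cells, and none among the 14486 UMIs of WT. By library Sox9 stood at 78.8, 26.8, 0 and 0 CPM in YAP3d and 44.0, 7.93 and 7.75 CPM in YAP7d, so that 1 YAP3d library was highest. Cldn3 had 9 UMIs in 7 YAP3d cells and 18 UMIs in 13 YAP7d cells, and stood at 118, 26.8, 22.2 and 0 CPM in YAP3d and 29.3, 63.4 and 31.0 CPM in YAP7d. YAP3d replicates 2 to 4, with 2, 1 and 0 Cldn3 UMIs, stood below the YAP7d libraries and replicate 1 stood above them. Krt19 had 1 UMI, in a YAP3d cell. Krt7, Epcam and Cldn7 had 0 UMIs in 51 YAP3d and 61 YAP7d cells, which allows shares of up to 5.88% and 4.92% of cells with a UMI (3 cells of each total), or 6.98% and 5.87% by the exact Clopper-Pearson 95% interval.

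The 14 hepatocyte-like cells with a Sox9 UMI were deeper than the other 101, with median UMIs of 10635.5 against 3823. All 14 held Krt18, 13 held Krt8, 12 held Tm4sf4, 12 held Clu and 5 held Cldn3, while none held Krt7, Krt19, Epcam or Cldn7. Among the other 101 cells, 85 held Krt18, 81 Krt8, 51 Tm4sf4, 45 Clu and 15 Cldn3. The 2 sets were not compared at equal depth.

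The share of hepatocyte-like cells with a UMI of Krt7, Krt19, Sox9 or Epcam was compared after thinning every cell to 2000 UMIs, which left out 5 of 18 cells of YAP3d replicate 3 and none from the other libraries compared. It was 1 of 13, 0 of 13 and 1 of 11 cells in YAP3d replicates 2 to 4 and 1 of 28, 0 of 22 and 1 of 11 in YAP7d. The means were 5.59 ± 4.90% and 4.22 ± 4.58% (SD, n = 3 in each), a difference of -1.37 percentage points (exact two-sided permutation test, p = 1; the smallest p of this design is 0.1). Without thinning the shares were 8.16 ± 7.73% and 14.1 ± 12.8%, a difference of 5.91 percentage points in the other direction (exact permutation test, p = 0.7). The design cannot pass a threshold of 0.05.

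Other genes of these programmes, taken from lists that hold no member, were mostly too low to test in hepatocyte-like cells. Of 24 biliary genes 4 were tested and 1 was called: Spp1, the secreted phosphoprotein osteopontin of bile ducts, was 126 ± 21.9 CPM in YAP7d and 3.19 ± 5.52 CPM in YAP3d (edgeR adjusted p = 0.0233, n = 3 in each group). The YAP3d libraries held 1 Spp1 UMI in all and the YAP7d libraries 59, a ratio of pooled levels of 28.8 with an exact 95% counting interval of 4.97 to 1156. Spp1 thus reached the filter on low counts only through YAP7d, and a gene admitted in this way had to differ. Of 19 hepatoblast and progenitor genes 1 was tested, of 29 epithelial junction genes 2 were tested, and none was called. Of 25 hepatocyte secreted and metabolic genes 23 were tested, with 1 called higher and 3 lower and a median of -0.12. Among the lower ones were Fabp1, the liver fatty acid carrier (2752 ± 1657 against 12402 ± 5018 CPM, log2 fold change -2.20, edgeR adjusted p = 0.0387), and Hpd of tyrosine breakdown (log2 fold change -1.96, edgeR adjusted p = 0.0387). Mup20, a major urinary protein, was higher (773 ± 365 against 59.4 ± 60.4 CPM, log2 fold change 3.52, edgeR adjusted p = 0.0289), and it too reached the filter only through YAP7d.

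For Krt8, Krt18, Tm4sf4, Sox9, Cldn3 and Clu, the share of UMIs that lay in hepatocyte-like cells was higher in YAP7d than in WT, as a description of the pooled libraries. In WT, 87.5% of Krt8 UMIs lay in cholangiocyte-like and 2.43% in hepatocyte-like cells. In YAP3d these shares were 59.4% and 29.0%, and in YAP7d 27.4% and 64.7%. By library, hepatocyte-like cells held 7 of 20 Krt8 UMIs in WT replicate 1 and 1 of 309 in WT replicate 2. They held 59 of 72 in YAP3d replicate 2 but 417 of 856 in YAP7d replicate 3, so that the pooled order does not hold in every library. Krt18 went from 85.9% and 2.53% in WT to 30.3% and 59.8% in YAP7d, and Tm4sf4 from 95.4% and 0.272% to 57.1% and 36.8%. For Krt18, hepatocyte-like cells held 7 of 16 UMIs in WT replicate 1 and 0 of 261 in WT replicate 2, beside 305 of 680 in YAP7d replicate 3. The hepatocyte-like share of Sox9 was 0% in WT, 11.8% in YAP3d and 23.9% in YAP7d, that of Cldn3 0%, 5.52% and 9.47%, and that of Clu 0.0385%, 0.863% and 4.33%. The YAP7d share of Sox9 rests on replicate 1, with 9 of 11 UMIs, beside 1 of 7 and 1 of 28 in replicates 2 and 3. Cldn7 kept at least 91.8% and Clu at least 86.9% of UMIs in cholangiocyte-like cells in each group. Because hepatocyte-like cells numbered 3 in WT, 51 in YAP3d and 61 in YAP7d, fewer cells of a type and less RNA per cell cannot be told apart in sums over all cells.

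**Figure D4:**
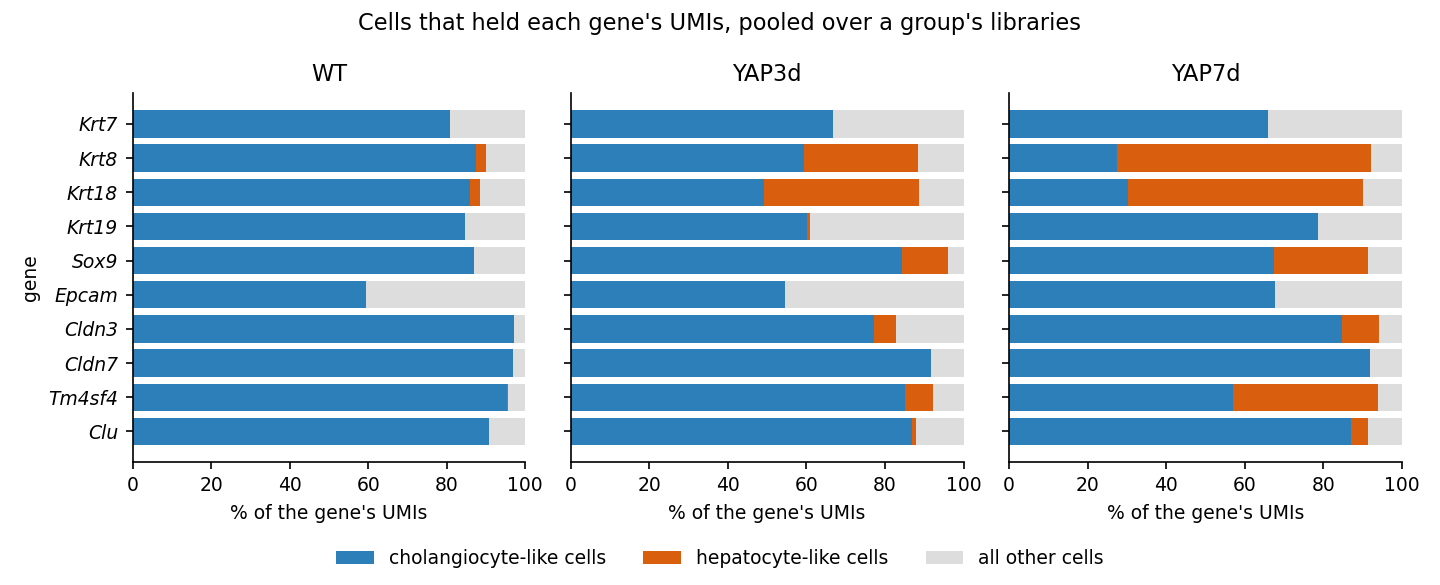
Share of each member's UMIs (percent) in cholangiocyte-like, hepatocyte-like and other cells, for WT, YAP3d and YAP7d with libraries pooled. The pooled hepatocyte-like share of Krt8 goes from 2.43% in WT (7 of 20 UMIs in replicate 1 and 1 of 309 in replicate 2) to 64.7% in YAP7d, and that of Krt7, Epcam and Cldn7 is 0 throughout.

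Summed over all cells, no member passed the test between groups. With all libraries, Krt8 and Krt18 had the largest positive changes between YAP7d and WT and Sox9 the largest negative one. This order did not hold without WT replicate 2, where Krt19 (4.01) exceeded Krt8 (2.93) and Krt18 (2.95) and Sox9 turned to 0.75. Without WT replicate 1, Krt8 and Krt18 were at 0.82 and 0.76, and with the Gm10709 term at 0.39 and 0.46. The members as a whole were spread around 0, with a median log2 fold change of -0.39 beside -0.02 over the 12071 genes tested.

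Krt8 stood at 10.4 and 42.1 CPM in WT, 90.8, 23.8, 25.2 and 26.0 CPM in YAP3d, and 113, 65.1 and 34.2 CPM in YAP7d. The groups overlapped, and the log2 fold change between YAP7d and WT was 1.45 (adjusted p = 0.168 by edgeR, SE 0.70). Krt18 stood at 8.35 and 35.6 CPM in WT, 98.5, 25.4, 38.1 and 24.5 CPM in YAP3d, and 77.0, 68.3 and 27.1 CPM in YAP7d, with a log2 fold change of 1.39 (adjusted p = 0.176 by edgeR, SE 0.69). In both genes YAP3d replicate 1 stood far above the other YAP3d libraries.

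The ductal keratins overlapped between groups: Krt7 was 2.16 ± 1.58 CPM over 2 WT libraries, 2.25 ± 0.817 CPM over 4 YAP3d libraries and 2.83 ± 0.885 CPM over 3 YAP7d libraries (mean ± SD). Krt19 was 7.76 ± 10.2, 9.10 ± 7.24 and 7.92 ± 3.86 CPM in the same order. Sox9 was 1.04 and 7.09 CPM in WT, 10.1, 0.991, 1.76 and 2.45 CPM in YAP3d, and 1.93, 1.68 and 1.12 CPM in YAP7d. For Sox9 the fold change rests on 1 WT library, and its log2 value was -1.44 (adjusted p = 0.245 by edgeR, SE 0.84).

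Epcam stood at 13.8, 9.61 and 7.02 CPM in YAP7d and at 16.7 and 17.9 CPM in WT. YAP3d ran from 6.94 to 36.4 CPM and overlapped both. Its log2 fold change was -0.65 (adjusted p = 0.411 by edgeR, SE 0.53) against WT and -0.96 (adjusted p = 0.172 by edgeR, SE 0.46) against YAP3d. Without YAP3d replicate 2, whose Epcam was the lowest of all libraries, the latter was -1.26 and was called (edgeR adjusted p = 0.0189). Cldn3, Cldn7, Tm4sf4 and Clu had log2 fold changes of -0.35, -0.43, -0.49 and -0.73 between YAP7d and WT, with edgeR adjusted p from 0.596 to 0.790.

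Between YAP7d and WT, 0 of 10 members were called over all cells, beside 2184 of 12071 genes (18.1%). At an unadjusted p below 0.05, edgeR found 4299 genes and no member, and DESeq2 called 2741 genes and no member. Between YAP3d and WT no gene was called (0%), with 358 at an unadjusted p below 0.05 and 16 by DESeq2, and the members had a median of 0.13, which turned to -0.54 without WT replicate 1 and -0.25 without YAP3d replicate 1 and was 1.80 without WT replicate 2. Between YAP7d and YAP3d, 1988 genes were called (16.5%) and no member, with 4125 genes at an unadjusted p below 0.05 and 2499 by DESeq2, and the members' median was -0.48, which turned to 0.15 without YAP3d replicate 1 and was -0.84 without YAP3d replicate 2 and -0.31 without YAP7d replicate 3. WT replicate 1 and 2 differed so much that the members' median between YAP7d and WT was 1.40 without WT replicate 2 and -0.91 without WT replicate 1. The number of cholangiocyte-like cells, 3 and 14 in these libraries, moved with it, and its part was not tested.

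Of the lists over all cells, 19 biliary genes were tested and none was called in any comparison. Of all genes tested, 18.1% were called between YAP7d and WT and 16.5% between YAP7d and YAP3d. The list counts that follow were not tested against these shares. Between YAP7d and WT 7 hepatoblast and progenitor genes were tested, with Cd44, a surface glycoprotein, higher (221 ± 31.7 against 105 ± 12.4 CPM, log2 fold change 1.25, edgeR adjusted p = 0.0332) and Axin2, a Wnt target, lower (1.08 ± 0.240 against 4.90 ± 1.92 CPM, log2 fold change -1.99, edgeR adjusted p = 0.0235). Axin2, at 0.798 to 1.23 CPM in YAP7d, reached the filter on low counts only through the other groups. Its calls against WT and YAP3d are therefore partly set by the filter. Macrophage-like cells numbered 34 and 78 in WT but 185, 214 and 536 in YAP7d, and monocyte-like cells 7 and 49 against 76, 30 and 523; Cd44 is also made by leukocytes, and the part of these cells was not tested. Of 15 junction genes 4 were lower: Tjp1, the scaffold protein of tight junctions, had the largest change (6.68 ± 3.12 against 57.8 ± 31.1 CPM, log2 fold change -3.00, edgeR adjusted p = 0.0101), and Spint2 (-1.82) and F11r (-1.60) were also among them. Tjp1 and F11r are also made by endothelium, and endothelial-like cells numbered 276 and 500 in WT but 7, 6 and 5 in YAP7d (276 and 503 against 24, 23 and 64 with finer clusters), so that cell number and RNA per cell cannot be told apart here either. Of 25 hepatocyte genes 5 were higher, among them the fibrinogen chain Fgb (35.9 ± 24.7 against 2.82 ± 2.65 CPM, log2 fold change 4.17, edgeR adjusted p = 0.0358) and Apoa1, the apolipoprotein of high-density lipoprotein (log2 fold change 3.31, edgeR adjusted p = 0.0494). Mup20 averaged 18.9 ± 15.2 CPM in YAP7d and had 0 UMIs in both WT libraries. With Gm10709 as a term in the fit, 0 of 12071 genes were called between YAP7d and WT by edgeR (1233 at an unadjusted p below 0.05), so that each of these list calls was lost. Between YAP3d and WT no gene of the lists was called, and between YAP7d and YAP3d 6 were, all lower, among them Axin2 (-1.85), Tjp1 (-2.40), Spint2 (-1.42), F11r (-1.14) and Ass1 (-1.52).

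Epcam-positive cells, defined by at least 1 Epcam UMI, numbered 263 of 8527, and only 18.6% of them were cholangiocyte-like. All 49 cholangiocyte-like cells were Epcam-positive and none of the hepatocyte-like cells was. The rest lay mainly in lymphoid and dendritic classes, with 48 B cell-like, 44 NK-like, 36 conventional dendritic-like, 31 T cell-like and 29 plasmacytoid dendritic-like cells.

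By library, 14 of 521 (2.69%) and 51 of 1416 cells (3.60%) were Epcam-positive in WT. In YAP3d the shares were 4.27% (12 of 281), 2.94% (13 of 442), 2.84% (12 of 422) and 3.49% (89 of 2551), and in YAP7d 2.67% (16 of 599), 1.52% (7 of 461) and 2.67% (49 of 1834). The exact Clopper-Pearson 95% intervals ran from 0.613 to 3.10% in the lowest library and from 2.23 to 7.34% in the highest, and cover counting error only. Each YAP7d library lay below each YAP3d library and below both WT libraries, and WT and YAP3d overlapped.

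The mean share was 2.29 ± 0.666% in YAP7d (n = 3) and 3.39 ± 0.654% in YAP3d (n = 4), a difference of -1.10 percentage points (exact two-sided permutation test, p = 0.0571, the smallest p that this design allows; adjusted over 3 comparisons 0.171). Against WT, at 3.14 ± 0.647% (n = 2), the difference was -0.857 points for YAP7d (exact permutation test, p = 0.2, the smallest p allowed) and 0.242 points for YAP3d (exact permutation test, p = 0.667). After thinning to 2000 UMIs per cell the shares in YAP7d and YAP3d were 0.971 ± 0.326% and 2.35 ± 0.559%, and all YAP7d libraries again lay below all YAP3d libraries. None of these tests could pass 0.05. The size of the differences moved with the libraries and limits used: leaving out WT replicate 1 or 2 gave -1.31 or -0.400 points for YAP7d minus WT, which was -0.473 when YAP7d replicate 2 was left out and -1.72 in cells with at least 4000 UMIs. YAP7d minus YAP3d was -0.715 points without YAP7d replicate 2, -0.538 with at least 2 Epcam UMIs and -2.65 in cells with at least 4000 UMIs. The Epcam-positive share counts cells of many classes, and endothelial-like and other cell numbers differ between the groups.

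Across classes, Epcam was detected in 19.2% of 151 plasmacytoid dendritic-like cells (95% interval 13.3 to 26.4%), 7.65% of 575 NK-like cells (5.61 to 10.1%) and 7.61% of 473 conventional dendritic-like cells (5.39 to 10.4%). Macrophage-like cells, deeper than most with a median of 12388 UMIs, held it in 0.708% of 1271 cells, and endothelial-like cells, with a median of 4165, in 0.650% of 1847. At an equal depth of 2000 UMIs the order was similar, with 4.03% in plasmacytoid dendritic-like, 3.06% in conventional dendritic-like, 2.34% in NK-like and 2.06% in B cell-like cells against 0.0820% in macrophage-like cells. Neutrophil-like cells (156) and mast or basophil-like cells (22) had no Epcam UMI, with upper 95% bounds of 2.34% and 15.4%.

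The ratio of Epcam to Clu differed between classes. For each 100 Clu UMIs there were 5.14 Epcam UMIs in cholangiocyte-like cells, 5.14 in macrophage-like, 4.63 in endothelial-like and 3.66 in monocyte-like cells. The ratio was 29.9 in T cell-like, 53.4 in conventional dendritic-like, 104 in B cell-like, 186 in NK-like and 220 in plasmacytoid dendritic-like cells. Within the NK-like class the Epcam-positive cells were uneven: 38 of 251 cells (15.1%) in the cluster led by Gzma, Ncr1 and Xcl1 and 6 of 324 (1.85%) in the other. The part of RNA released from other cells in these counts was not tested.

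**Figure D5:**
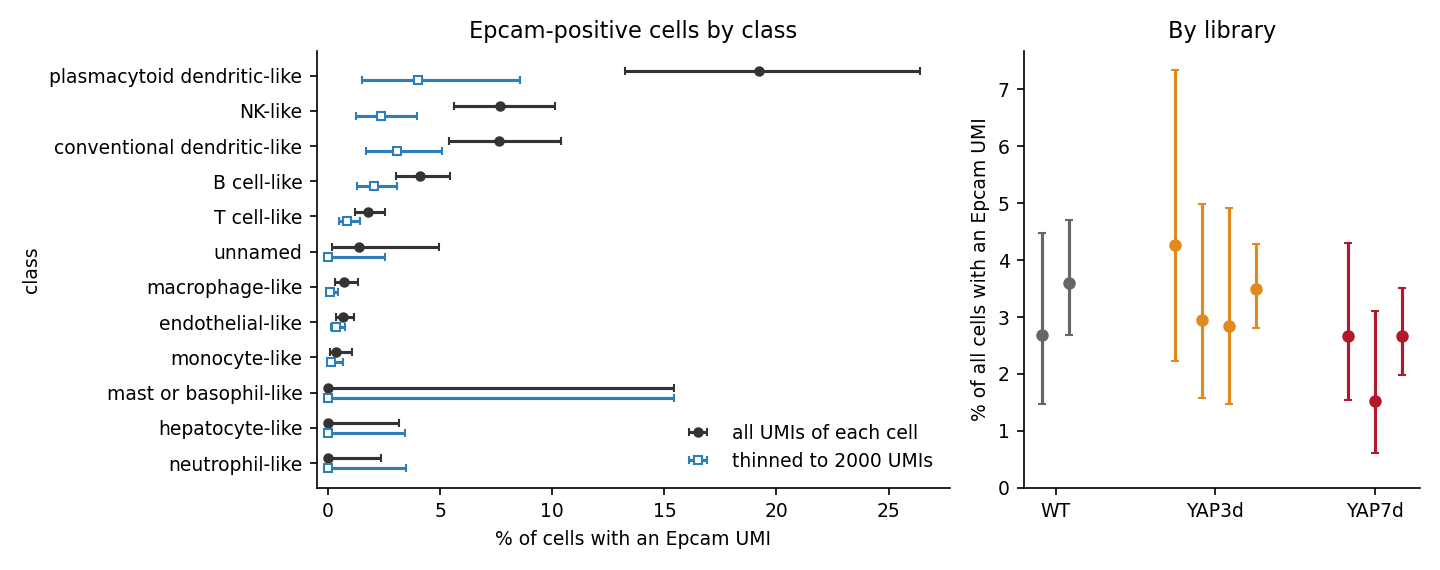
Left, percent of cells with an Epcam UMI by class, without the cholangiocyte-like class, with all UMIs (black) and after thinning to 2000 UMIs per cell (blue), bars being exact 95% intervals; right, the share per library by group. Plasmacytoid dendritic-like cells are highest at 19.2%, and the 3 YAP7d libraries (1.52 to 2.67%) lie below the 4 YAP3d libraries (2.84 to 4.27%).

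In the other classes tested, Clu was the only member with enough counts. In macrophage-like cells it was 6.00 ± 3.78 CPM in YAP7d (n = 3) and 15.6 ± 22.1 CPM in WT (n = 2), a log2 fold change of -1.82 (adjusted p = 0.367 by edgeR, SE 0.96). Over all genes tested in that class, 88 of 7528 were called (1.17%). In T cell-like cells Clu was 5.06 ± 4.45 and 11.7 ± 13.3 CPM, with a log2 fold change of -1.23 (adjusted p = 0.842 by edgeR, SE 1.15). None of 6522 genes was called there by edgeR (0%), with 555 at an unadjusted p below 0.05 and 29 by DESeq2. Leaving out WT replicate 2 turned the sign of Clu in both classes, to 6.89 and 1.39. Endothelial-like cells had no comparison at the clustering used throughout, since each YAP7d library held fewer than 10. With finer clusters, at which the YAP7d libraries held 24, 23 and 64 such cells, Clu was again the only member tested, with a log2 fold change of -0.14 between YAP7d and WT (adjusted p = 0.906 by edgeR, SE 0.57), beside 1368 of 7466 genes called (18.3%).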

How the data were processed

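The members and the gene lists were chosen with earlier results of these data known. Libraries were prepared from digested liver by droplet-based 3' single-cell RNA-seq. The authors aligned reads to mm10 and made a matrix of integer UMI counts per gene and cell with Cell Ranger, and the submitters' processing notes also name Seurat 2; the deposited counts carry no normalization. Each cell's library came from its name. Collapsing by UMI limits amplification bias, and 3' counts do not compare well between genes.

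Cells with under 200 detected genes were left out (35), without a filter on mitochondrial counts (353 cells exceeded 10%). Of 2500 variable genes 2438 were used, without the members and 23 cell cycle genes. Mitochondrial, ribosomal, haemoglobin, histone and immunoglobulin genes were also left out. Genes of the fixed lists and the markers were not left out, so they could shape the clusters. Cells were clustered with scanpy 1.11.5 (30 principal components, 15 neighbours, Leiden resolution 1, igraph 0.11.9, seed 0). A cluster was named from fixed markers, of which 163 of 166 were in the table, if at least 3 were raised by a log2 fold over 1 and its top 10 genes held no more markers of another class. Scrublet, at an expected rate of 0.05, called 60 doublets (0.704%), none of them cholangiocyte-like or hepatocyte-like, and these were kept.

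Counts were summed per library and class for libraries with at least 10 cells (2 for cholangiocyte-like cells). Genes were filtered with filterByExpr, scaled with TMM and fitted with edgeR 4.0.16 under R 4.3.3 (glmQLFit, glmQLFTest, Benjamini-Hochberg adjustment over all genes tested). DESeq2 1.42.0 was the second tool. Scripts were tested on simulated data. Shares were compared with exact permutation tests over libraries (scipy 1.17.1, Python 3.11.15), also after thinning cells to 2000 UMIs, and have Clopper-Pearson 95% intervals that cover counting error only. A count of 0 was read against a limit of 3 UMIs. Genes named beyond the members were at most 3 per list and comparison, those with the largest change among called genes without overlap between groups. Other called list genes are named as counts require and were chosen after their values were seen, namely Hpd, and F11r between YAP7d and YAP3d. Some list genes are not reported here.

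Same-numbered libraries did not deviate together: the correlations of their deviations from group means ran from -0.285 to 0.209, so numbers were not treated as pairs. Alternatives covered tool, scaling, filters, cell limits, clustering, each library left out, the replicate number as a block and a term for Gm10709.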

Additional observations from a re-analysis of the deposited data

Results flagged for a closer look

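Of 16 quantities with 4 libraries in a group, 2 had 1 library set apart from the rest by more than Dixon's 95% critical value, which chance alone exceeds in about 1 of 20 groups. Both were YAP3d replicate 1 over all cells. Krt8 stood at 90.8 CPM there and at 23.8, 25.2 and 26.0 CPM in the other YAP3d libraries. Sox9 stood at 10.1 CPM there and at 0.991, 1.76 and 2.45 CPM in the others. This library had the fewest cells, 281, and the highest share of cholangiocyte-like cells, 1.07%, beside 3.20% hepatocyte-like cells; their part in the 2 values was not tested.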

How the results depend on the processing

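Of 708 recomputed values over 41 results, 653 were counted as unchanged. For fold changes this meant the same direction and side of the threshold, and for shares the same direction only. Counts of members called could move a little: 4 or 2 members in hepatocyte-like cells, in place of 3, counted as unchanged. Many of the 653 are counts of 0 members that stayed at 0. Members called in hepatocyte-like cells numbered 0 with the Gm10709 term, 1 with at least 5 cells per library and 0 to 4 with a library left out; 4 were called with the replicate block, which changed no other count of members. Gene calls there ranged from 0 to 187 with a library left out, and were 0 with the Gm10709 term, 81 by DESeq2 and 170 without a filter. Over all cells, members called between YAP7d and YAP3d were 0 to 1 with a library left out (1, Epcam, without YAP3d replicate 2). Gene calls over all cells between YAP7d and WT ranged from 509 to 3179 with a library left out and were 0 with the Gm10709 term; between YAP7d and YAP3d they were 860 to 3569, 114 with that term and 866 with the replicate block. In macrophage-like and T cell-like cells, no filter gave 504 and 223 calls and the replicate block 173 and 144.

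With a library left out, log2 fold changes between YAP7d and WT over all cells ranged from -0.12 to 1.61 for Krt7, -0.88 to 4.01 for Krt19, -2.09 to 0.75 for Sox9, -0.93 to 1.19 for Cldn3, -1.11 to 2.03 for Cldn7, -1.08 to 0.73 for Tm4sf4 and -1.49 to 0.98 for Clu. The highest value was without WT replicate 2 in each. Krt19 also turned to 0.071 by DESeq2 and 0.27 with the replicate block. In cholangiocyte-like cells Tm4sf4 ranged from -0.84 to 0.035 (0.035 with at least 3 cells per library) and Clu from -0.16 to 1.03. Clu in macrophage-like cells ranged from -2.56 to 6.89, the latter fitted against a WT library at 0 UMIs and so no bound, and was 2.23 with the Gm10709 term; in T cell-like cells it ranged from -2.64 to 1.39 and was 5.83 with that term.

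The Epcam-positive share of YAP3d minus WT was -0.152 points with at least 2 Epcam UMIs and -0.216 to 0.699 with a library left out. The hepatocyte-like share with a UMI of Krt7, Krt19, Sox9 or Epcam differed by 5.91 points without thinning, 3.12 with a marker gate per cell, -8.31 with at least 5 cells per library and -4.17 to 0.737 with a library left out. The causes were not tested. Limits of at least 20 hepatocyte-like cells and at least 4000 UMIs per cell gave no fit for that class. Krt7, Krt19, Sox9, Epcam, Cldn3 and Cldn7 had too few counts in hepatocyte-like cells to pass the filter (Krt19, Sox9 and Cldn3 were fitted without it and not called), and for Krt7, Epcam and Cldn7, with 0 UMIs there, low depth and absence cannot be told apart.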

Other observations

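After the cholangiocyte-like class, most Krt19 UMIs lay in unnamed cells, with 76 of its 465 UMIs, all but 1 in a cluster of 122 cells. There, 6 cells with at least 5 Krt19 UMIs, chosen after their values were seen, came from 5 libraries of all 3 groups and held 6, 8, 9, 9, 13 and 30 Krt19 UMIs. None of these cells had a UMI of Epcam, Sox9, Cldn7 or Tm4sf4. The genes most raised in them over all other cells were Igfbp5, Igfbp6, Dcn, Upk3b, Rarres2 and C3, with 194, 310, 801, 105, 186 and 352 of their 57030 UMIs.

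A small T cell-like cluster led by Cd8b1 and Gzmk had 5 Epcam-positive cells of 23 (21.7%), beside 0.900 to 2.56% in the other T cell-like clusters. Of the 36 Epcam-positive conventional dendritic-like cells, 26 lay in the larger of 2 clusters.

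Over 12 named classes with at least 20 cells, whose points share libraries, the gene most like each member by Pearson correlation of log2(CPM + 10) was as follows. Krt8 was closest to Gjb1 (0.999), the connexin of hepatocytes and bile duct cells, and then to its partner Krt18 (0.999). Sox9 was closest to Smim22 (0.999) and Cldn3 (0.999), and Cldn7 to Cldn6 (0.9997). Krt19 was closest to Cldn7 (0.999), Tm4sf4 to Sorbs2 (0.999), Krt7 to 1700011H14Rik (0.996) and Clu to Cldn3 (0.993). Epcam was least like its nearest genes, Bicd1 (0.987) and St14 (0.986). With 12 points, and with 1 or 2 epithelial classes far above the rest, such values are a description only.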
